A study of Mus musculus with 8 samples.

Results

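The genes described here are 30 that serve protein folding and quality control in the endoplasmic reticulum (ER) and the unfolded protein response, chosen by name among the 48440 genes of the deposited table. They are 15 chaperones and folding enzymes, 7 genes of ER-associated degradation, and 8 stress sensors and transcription factors. All 30 were found in the table, and 28 passed the filter on low values (at least 10 CPM, that is, signal scaled to a common library total, in at least 4 libraries). By limma, 0 of the 28 passed the test between conventionalized and germ-free animals (adjusted p under 0.05), against 4.92% of all tested genes. Before adjustment 3 of the 28 were under 0.05 by limma, against 27.8% of all tested genes. That fit ignores the littermate pairs of the design. With the pair as a block 1 of the 28, Ern1, was lower, against 13.1% of all tested genes called in either direction. The call of Ern1 was not kept without 1 of the pairs.

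The RNA came from 8 female C57BL/6J mice with a Sox9-EGFP reporter, a green fluorescent read-out of the transcription factor Sox9, whose jejunal epithelium was sorted. There were 4 conventionalized and 4 germ-free animals, 1 of each in every littermate pair, A to D. All 8 were raised germ-free. The conventionalized littermate was moved to another animal facility at 8 to 10 weeks of age, was gavaged with a fecal slurry from conventionally raised mice of the same reporter colony, and was harvested with its germ-free littermate 2 weeks later. The gate left out cells with Annexin-V, CD31, CD45 or the dye Sytox-blue and kept those of low reporter signal. The comparison asks what the microbiota changes in a stem-cell-enriched fraction, and colonization and the change of facility cannot be told apart in it.

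Secreted and membrane proteins fold in the ER, where BiP and other chaperones hold unfinished chains and protein disulfide isomerases form and rearrange their disulfide bonds. When unfolded chains accumulate, 3 membrane sensors respond: IRE1 splices the mRNA of the transcription factor XBP1, PERK slows translation and lets ATF4 be made, and ATF6 is cut in the Golgi to release a transcription factor. Their targets raise folding capacity and the export of misfolded proteins to the proteasome. In the gut the secretory goblet and Paneth cells depend strongly on this system. The table gives total RNA per gene, so splicing of Xbp1, phosphorylation of PERK and cleavage of ATF6 were not measured.

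The ER stress response element (ERSE), which ATF6 and XBP1 can bind, links many of these genes. It was searched as CCAAT and CCACG with 9 bases of any kind between them, on both strands, in the RefSeq promoter table of build GRCm38.p6, which holds 250 bases before and 50 bases after a transcription start. The table held a promoter for 25 of the 30 genes and none for Atf6, Derl1, Manf, Hyou1 and Ern2. The element was in the promoters of 9 of the 25 genes, or 36.0%. Over all promoters it was in 37 of 27025 genes, and in 39 of 32851 promoters, or 0.119%. The sites are shown as a sequence feature of these 9 genes. The search was not used to choose the genes. They were chosen by name as ER folding and stress genes, targets of ATF6 and XBP1 among them, so the shares are not an independent test of the set. They are written 5′ to 3′ on the strand that carries the element, with the CCAAT and CCACG ends in capitals:
Hspa5: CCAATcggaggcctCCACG
Hsp90b1, site nearer the start: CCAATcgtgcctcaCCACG
Hsp90b1, site farther from the start: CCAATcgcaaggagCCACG
Calr: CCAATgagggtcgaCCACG
Canx: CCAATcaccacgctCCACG
Pdia6: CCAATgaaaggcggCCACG
Dnajc3: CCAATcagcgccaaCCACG
Creld2: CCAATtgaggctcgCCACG
Syvn1: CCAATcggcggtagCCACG
Derl3: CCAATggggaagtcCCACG
The ends are alike by construction of the search, and the 9 bases between them differ in every site. The Hspa5 site lies at chr2:34772025-34772043 on the plus strand, from base -65 to base -47 relative to the start, and the Syvn1 site at chr19:6046532-6046550, from -44 to -26. The other sites lay between base -212 and base -80. Those of Calr, Creld2, Derl3 and the nearer of the pair in Hsp90b1 are on the strand opposite to the gene.

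The whole upstream windows of Hspa5 (chr2:34771840-34772089, plus strand) and Hsp90b1 (chr10:86705445-86705694, minus strand) are given for context, as the BiP gene and the gene with more than 1 element. Capitals mark the ERSE ends and, in Hspa5, the unfolded protein response element TGACGTG:
Hspa5: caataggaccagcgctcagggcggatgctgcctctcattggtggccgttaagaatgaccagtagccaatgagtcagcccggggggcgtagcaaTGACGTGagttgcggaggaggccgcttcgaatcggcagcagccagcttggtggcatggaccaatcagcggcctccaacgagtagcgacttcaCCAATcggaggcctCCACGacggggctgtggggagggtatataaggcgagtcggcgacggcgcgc
Hsp90b1: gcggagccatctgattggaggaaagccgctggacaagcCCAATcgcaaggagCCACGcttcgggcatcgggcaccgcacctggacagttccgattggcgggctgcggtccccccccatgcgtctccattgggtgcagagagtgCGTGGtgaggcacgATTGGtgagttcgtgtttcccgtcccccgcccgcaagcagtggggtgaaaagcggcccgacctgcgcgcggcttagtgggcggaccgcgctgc
In the Hsp90b1 window the second element reads CGTGG and then ATTGG in capitals because it lies on the other strand. TGACGTG was found in 2.01% of all promoters, in 601 of 27025 genes and, among the 25 genes, in Hspa5 alone. The second form of the element, ERSE-II, was searched as ATTGG and CCACG with 1 base between them. This form was in 0.0365% of all promoters, in 12 of 27025 genes and in 2 of the 25 genes. It is shown for these because it carries the same CCACG end:
Herpud1: ATTGGgCCACG
Dnajb11: ATTGGcCCACG
The element bound by ATF4, searched as TGATGNAAT, was in 0.965% of all promoters, in 293 of 27025 genes and in 0 of the 25. The 0 says only that these letters are not in these windows. No matches in these genes overlapped each other. Of the 37 genes in the whole table of promoters with an ERSE, 12 were tested and 0 passed limma's test in either direction, 2 of them being under 0.05 before adjustment. The 8 tested genes of the set with an ERSE had log2 fold changes, conventionalized over germ-free, from -0.30 to 0.52 with a median of 0.021.

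Approximate depth ran from 9363889 to 19139685 reads in the conventionalized libraries and from 6209041 to 11648529 in the germ-free libraries. Epcam, an epithelial surface marker, was at 1636 to 3018 CPM in conventionalized animals, against 933 to 1771 CPM in germ-free libraries, and Sox9 at 252 to 517 CPM in conventionalized libraries, against 137 to 337 CPM in germ-free libraries. Of 12 plasma cell and leukocyte markers none passed the filter, and the highest single value was 19.5 CPM, of the pan-leukocyte gene Ptprc. The plasma cell genes Mzb1 and Igha stayed at or below 0.269 CPM, and Jchain at or below 2.07 CPM. Enteroendocrine markers summed to between 0.847% and 2.19% of the library in conventionalized animals and between 3.95% and 8.07% in germ-free animals, with 8 of 12 lower in conventionalized animals. Proliferation markers summed to between 0.057% and 0.0906% in conventionalized libraries and between 0.0147% and 0.0429% in germ-free libraries, with 5 of 7 higher in conventionalized animals. Stem cell markers summed to between 0.357% and 0.890% in conventionalized and between 0.107% and 0.474% in germ-free libraries; all 7 had positive fold changes and 1, Lgr5, was higher by the test. Enterocyte markers summed to between 0.0524% and 0.245% in conventionalized and between 0.192% and 0.439% in germ-free libraries, and 3 of 8 tested, Slc15a1, Sis and Krt20, were lower. Fewer cells of a type and less RNA per cell cannot be told apart in such bulk samples, and the part of cell composition in the values below was not tested. Pecam1, which encodes the gated CD31, was at 2.15 to 9.84 CPM in conventionalized libraries and at 13.4 to 25.3 CPM in the germ-free ones. The library least like its group was the germ-free one of pair C, with a median correlation of 0.792 across genes with its group, against 0.871 to 0.943 for the others. Over all 10053 tested genes, 117 were higher and 378 lower in conventionalized animals, and the median log2 fold change was 0.32.

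Most of the chaperones and folding enzymes were abundant, while Dnajb9, at 6.65 to 12.3 CPM in conventionalized and 11.7 to 17.0 CPM in germ-free libraries, and Hyou1 were low. After TMM scaling, the highest conventionalized animal stood 1.85 to 3.08 times above the lowest. In the germ-free group this ratio was 1.19 to 6.85, with 6.85 for Hyou1 and the next, 2.99, for Manf. Summed, the 15 made up 0.369% to 0.586% of the signal in conventionalized libraries and 0.465% to 0.508% in germ-free libraries. Of these 15 genes, 0 passed the limma test in either direction and 0 were under 0.05 before adjustment, 12 had a positive and 3 a negative log2 fold change, and the median was 0.15, against 0.32 over all tested genes. Per kilobase of merged exons, P4hb was the most abundant of the set, at a mean level of 326 CPM per kb in conventionalized and 235 in germ-free libraries, and Derl3, an ER degradation gene, was the least, at 1.06 CPM per kb in conventionalized and 1.15 in germ-free libraries.

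Hspa5 encodes BiP, the main Hsp70 chaperone of the ER lumen, which also holds the sensors inactive. It was at 1117, 760.3, 423 and 842 CPM in the conventionalized animals of pairs A to D, and at 1168, 937, 816 and 777 CPM in their germ-free littermates. The conventionalized animal of pair C was the lowest of the 8, and the groups overlapped. The log2 fold change was -0.30 (SE 0.38, 95% interval -1.12 to 0.52, limma adjusted p = 0.609). Without the conventionalized animal of pair C it was -0.029, and without that of pair A -0.53. Hsp90b1, the ER member of the Hsp90 family, averaged 563 ± 204 CPM in conventionalized animals, against 484 ± 106 CPM in germ-free animals (SD, n = 4 each), a log2 fold change of 0.17 (SE 0.37, limma adjusted p = 0.776). Its RNA and that of BiP thus had fold changes of opposite sign, each within its own error. Both were negative without the conventionalized animal of pair A, with Hsp90b1 at -0.063. With library size as the only scaling both were negative too, at -0.53 for Hspa5 and -0.067 for Hsp90b1.

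Calr and Canx encode calreticulin and calnexin, which bind the sugar chains of new glycoproteins, and Pdia3 the disulfide isomerase that works with them. Calr ran from 431 to 879 CPM in conventionalized animals, against 481 to 815 CPM in germ-free libraries. Canx averaged 346 ± 128 CPM in conventionalized animals, against 268 ± 37.2 CPM in germ-free animals (SD, n = 4 each). Pdia3 averaged 621 ± 210.1 CPM in conventionalized animals, against 548 ± 122 CPM in germ-free animals. The groups overlapped for each of these genes, and their log2 fold changes were -0.054 for Calr, 0.30 for Canx and 0.15 for Pdia3, with limma adjusted p-values of 0.931, 0.545 and 0.791.

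The other disulfide isomerases lay on the higher side in conventionalized animals without passing the test. Pdia4 was at 358, 297, 153 and 284 CPM in the conventionalized animals of pairs A to D, and at 224, 231, 87.4 and 169 CPM in their germ-free littermates. Each conventionalized animal was above its own littermate, but the groups overlapped, since the conventionalized animal of pair C was below 3 of the germ-free ones. The log2 fold change was 0.65 (SE 0.38, limma adjusted p = 0.263, or 0.105 with the littermate pair as a block), and without the germ-free animal of pair C it was 0.34. Pdia6 averaged 457 ± 176 CPM in conventionalized animals, against 319.9 ± 118 CPM in germ-free animals, a log2 fold change of 0.52 (SE 0.39, limma adjusted p = 0.371), or 0.26 without the conventionalized animal of pair A. P4hb, the founding disulfide isomerase and a subunit of the collagen prolyl hydroxylase, averaged 933 ± 444 CPM in conventionalized animals, against 672 ± 149 CPM in germ-free animals (SD, n = 4 each), a log2 fold change of 0.39 (SE 0.39, limma adjusted p = 0.514). Its spread in conventionalized animals came with 1549 CPM in pair A, against 598 to 965 CPM in the other 3, and without that animal the log2 fold change was 0.075. The goblet cell markers summed to 4.08% of the library in the same animal, against 0.188% to 0.514% in the other conventionalized ones, and their part in the P4hb values was not tested.

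The J-domain co-chaperones, which set the pace of BiP, had fold changes of both signs. Dnajb9, a target of XBP1 that returns IRE1 to its inactive state, averaged 9.98 ± 2.44 CPM in conventionalized animals, against 13.4 ± 2.45 CPM in germ-free animals (SD, n = 4 each). It was lower in conventionalized animals in all 4 pairs, with a log2 fold change of -0.43 (SE 0.34, limma adjusted p = 0.398). Dnajb11 averaged 118 ± 47.5 CPM in conventionalized animals, against 104 ± 18.9 CPM in germ-free animals, a log2 fold change of 0.13 (SE 0.32). Dnajc3, also known as an inhibitor of PERK, ran from 56.1 to 126 CPM in conventionalized animals, against 72.9 to 86.8 CPM in germ-free animals, a log2 fold change of 0.016 (SE 0.29).

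Sdf2l1, Creld2 and Manf, small ER proteins that are among the genes most strongly induced by ER stress, had the same 4 animals at the top. Their values per library are shown because of this order. Sdf2l1 was at 150.4, 85.1, 57.5 and 119 CPM in the conventionalized animals of pairs A to D, and at 125, 118, 54.2 and 67.5 CPM in their germ-free littermates. Creld2 was at 169, 77.2, 60.3 and 124 CPM in conventionalized animals, and at 147, 137, 61.5 and 73.0 CPM in germ-free animals. Manf was at 181, 84.4, 58.6 and 121 CPM in conventionalized animals, and at 145, 117, 48.4 and 72.4 CPM in germ-free animals. For each gene the conventionalized animals of pairs A and D and the germ-free animals of pairs A and B were the 4 highest, so the high and low animals were split evenly over the groups. The log2 fold changes were 0.17, 0.026 and 0.22 for Sdf2l1, Creld2 and Manf, with SE of 0.37, 0.39 and 0.41. Sdf2l1 and Creld2 have 1 annotated transcript each, so their reads can be read from the table: about 1837, 885, 622 and 1780 reads of Sdf2l1 in conventionalized and 977, 1325, 472 and 753 in germ-free libraries. Counting error is small at such numbers beside the differences between animals.

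Hyou1, an ER chaperone of the Hsp110 family that exchanges the nucleotide of BiP, was at 14.4 to 29.2 CPM in conventionalized animals, against 5.65 to 38.7 CPM in germ-free animals, a log2 fold change of 0.093 (SE 0.50). It had the widest spread of the 15 in the germ-free group, with a ratio of 6.85 between the highest and the lowest germ-free animal. The order of the animals was much alike across the chaperones. After TMM scaling all 15 were highest, within the conventionalized group, in pair A, and 14 of the 15 were lowest in pair C. Within the germ-free group 12 of the 15 were highest in pair A and 10 lowest in pair C. With library size as the only scaling, 11 of the 15 were highest in the conventionalized animal of pair A and 11 lowest in that of pair C. In the germ-free group 3 were then highest in pair A, and 5 were lowest, against 6 highest, in pair C. The order thus depended in part on the scaling in conventionalized animals, and more so in germ-free ones. TMM scaling took Hspa5 from 853 to 1117 CPM in the conventionalized animal of pair A, and from 488 to 423 CPM in that of pair C. How many of all tested genes had the same order was not counted, so it is not shown to be particular to the chaperones. The conventionalized animal of pair A is the one with goblet cell markers at 4.08% of the library. Paneth cell markers summed to 0.580%, 1.24%, 1.09% and 0.777% in the conventionalized animals of pairs A to D. In their germ-free littermates they summed to 1.68%, 1.31%, 0.425% and 0.487%, and 1 of 12 tested, Mptx2, was higher in conventionalized animals. The part of goblet and Paneth cell markers in the chaperone values was not tested. The chaperone genes share libraries and scaling, so the counts describe 8 animals and not 15 independent results.

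**Figure D1:**
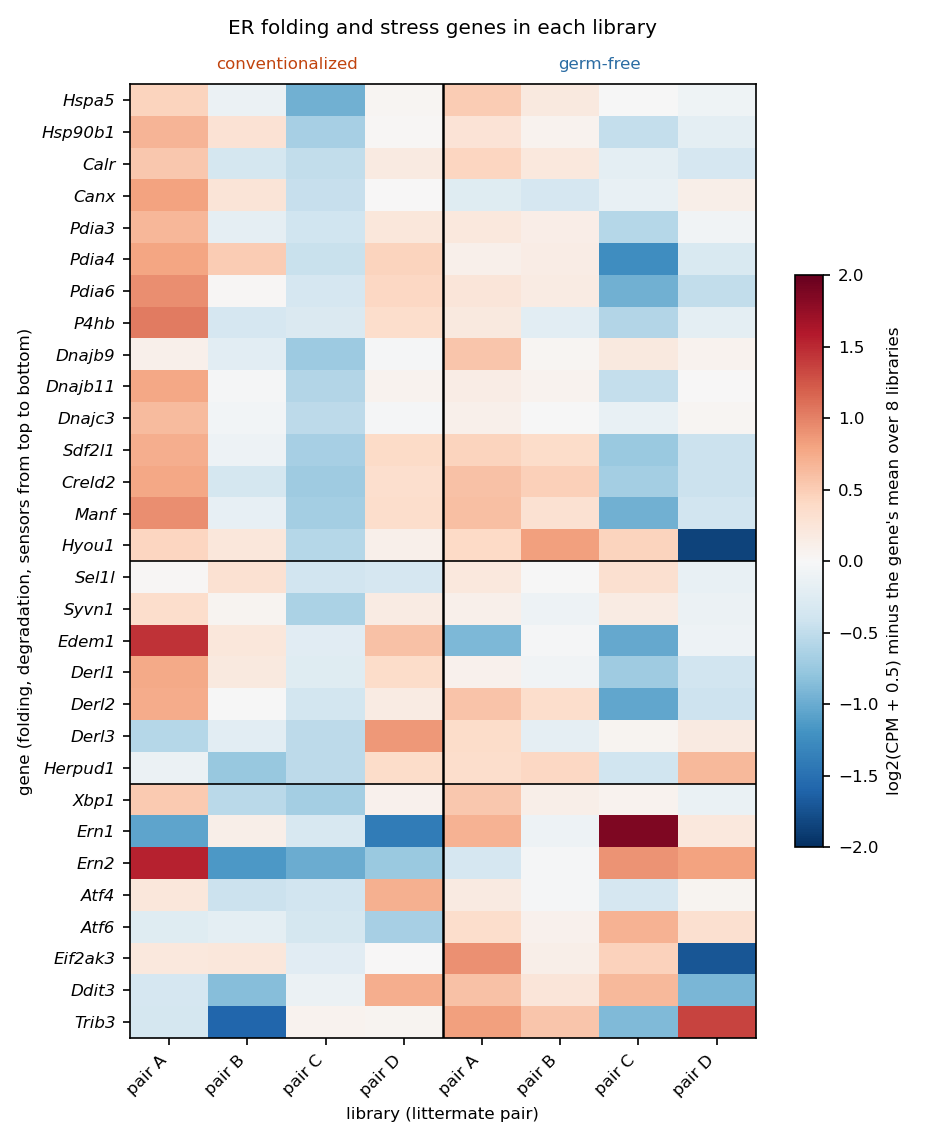
Level of the 30 genes (rows, in the order folding, degradation, sensors) in the 8 libraries (columns), as log2(CPM + 0.5) minus the gene's mean over the 8 libraries. The conventionalized animal of pair A is red across the folding genes and that of pair C blue, while Ern1 and Atf6 are mainly blue in conventionalized and red in germ-free animals.

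Compared within littermate pairs, the chaperones were higher in the conventionalized animal for 13 of 15 genes in pair A, 3 in pair B, 6 in pair C and 12 in pair D. The median within-pair log2 differences of the 15 were 0.42, -0.24, -0.10 and 0.52 in pairs A to D, while those of all tested genes were 0.32, 0.062, 0.35 and 0.49. In pairs B and C the chaperones lay below the median gene. With library size as the only scaling the medians of the 15 were 0.19, -0.12, -0.38 and -0.035, with 10, 5, 3 and 6 genes higher in the conventionalized animal of pairs A to D, so the sign in pair D rested on the TMM scaling, while those of pairs A, B and C were alike under both. Over the 28 tested genes of the set, 6, or 21.4%, had the same sign in all 4 pairs, against 38.3% of all tested genes. Pdia4, Edem1 and Derl1 were higher in each conventionalized animal than in its littermate, as were 28.4% of all tested genes, and Dnajb9, Herpud1 and Atf6 were lower, as were 9.89%. With library size as the only scaling the same 3 genes were higher in all 4 pairs, and 6 were lower (Hspa5, Calr and Xbp1 in addition), beside 13.9% of all tested genes.

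**Figure D2:**
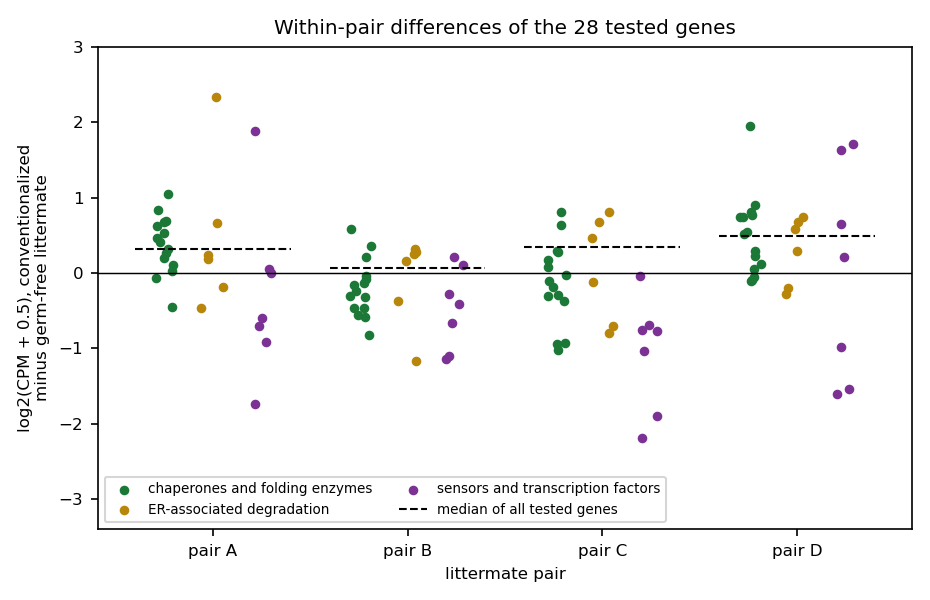
Difference between the conventionalized animal and its germ-free littermate, in log2(CPM + 0.5), for each of the 28 tested genes (points, coloured by role) in pairs A to D. Dashed lines are the medians of all tested genes, and the chaperones lie mostly above 0 in pairs A and D and mostly below 0 in pair B; with library size as the only scaling their median in pair D was -0.035.

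In ER-associated degradation, 0 of 6 tested genes passed the limma test and 1 was under 0.05 before adjustment, 3 had a positive and 3 a negative log2 fold change, and the median was 0.12. Edem1, a mannosidase-like protein that marks misfolded glycoproteins for removal, had the largest positive fold change of the set. The gene lies on the plus strand at chr6:108828641-108859356 (GRCm38). It was at 129, 55.2, 40.1 and 70.3 CPM in the conventionalized animals of pairs A to D, and at 25.1, 46.2, 22.8 and 43.7 CPM in their germ-free littermates. Each conventionalized animal was above its littermate and the animal of pair A stood highest, but the groups overlapped, since the conventionalized animal of pair C was below 2 germ-free ones. Edem1 averaged 73.7 ± 38.9 CPM in conventionalized animals, against 34.4 ± 12.2 CPM in germ-free animals (SD, n = 4 each), a log2 fold change of 1.02 (SE 0.37, 95% interval 0.22 to 1.82). Its limma p was 0.0164 before and 0.121 after adjustment over all tested genes, and from 0.0608 to 0.418 over the alternatives. Without the conventionalized animal of pair A, whose goblet cell markers were at 4.08% of the library, the log2 fold change was 0.68, and the part of those markers was not tested. Its values per library were chosen for display after they had been seen.

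Derl1 and Derl2 encode derlins, parts of the channel through which misfolded proteins leave the ER. Derl1 averaged 138 ± 39.0 CPM in conventionalized animals, against 93.9 ± 22.2 CPM in germ-free animals, a log2 fold change of 0.54 (SE 0.30, limma adjusted p = 0.241, or 0.141 with the littermate block), or 0.34 without the conventionalized animal of pair A. Derl2 averaged 57.9 ± 19.7 CPM in conventionalized animals, against 50.6 ± 23.6 CPM in germ-free animals (SD, n = 4 each), a log2 fold change of 0.27 (SE 0.37). Derl3, the derlin of secretory tissues, did not pass the filter, with 1.23 to 4.21 CPM in conventionalized animals, against 1.78 to 2.81 CPM in germ-free libraries. Sel1l and Syvn1 encode the adaptor and the ubiquitin ligase HRD1 of this channel. Sel1l averaged 77.7 ± 18.2 CPM in conventionalized animals, against 87.7 ± 12.8 CPM in germ-free animals (SD, n = 4 each), and Syvn1 ran from 46.1 to 91.3 CPM in conventionalized animals, against 65.4 to 80.2 CPM in germ-free animals. Their log2 fold changes were -0.19 (SE 0.27) and -0.024 (SE 0.28), with 95% intervals of -0.77 to 0.39 for Sel1l and -0.62 to 0.57 for Syvn1. Those intervals leave room for a change of either sign, but not for a change of 1 log2 unit.

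Herpud1, a ubiquitin-like membrane protein that brings HRD1 complexes together and is induced by all arms of the response, lay on the lower side. It averaged 196 ± 69.8 CPM in conventionalized animals, against 276 ± 76.6 CPM in germ-free animals (SD, n = 4 each) and was lower in the conventionalized animal of all 4 pairs, by 0.12 to 1.17 log2 units. The log2 fold change was -0.51 (SE 0.35, limma adjusted p = 0.325). Herpud1 and Edem1, which act at neighbouring steps, thus had fold changes of opposite sign, and neither passed the test.

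The sensors and their transcription factors had the lowest median fold change of the 3 roles. Of 7 tested genes, 0 passed the limma test and 2 were under 0.05 before adjustment, 2 had a positive and 5 a negative log2 fold change, and the median was -0.30. With the littermate pair as a block 1 of the 28 genes, Ern1, was lower in conventionalized animals, beside 5.02% of all tested genes called lower in that fit. As summed shares of the unscaled library, the 8 genes made up 0.0479% to 0.063% in conventionalized and 0.0642% to 0.101% in germ-free libraries. The degradation genes made up 0.0507% to 0.0599% in conventionalized and 0.0607% to 0.0754% in germ-free libraries. Both of these sums were without overlap between the groups. So were 20.1% of all tested genes, taken singly, with library size as the only scaling. Of the tested degradation genes, 3 had a positive and 3 a negative log2 fold change. The sums carry no TMM scaling, under which the median log2 fold change of all tested genes was 0.32, against 0.088 without it. The enteroendocrine markers given above were lower in the same animals, and their part in the values of the sensors was not tested.

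Ern1 encodes IRE1 alpha, the kinase and RNase of the most conserved arm, from a gene on the minus strand at chr11:106394650-106487852. It was at 8.33, 19.3, 14.1 and 6.39 CPM in the conventionalized animals of pairs A to D, and at 29.0, 16.6, 65.8 and 20.5 CPM in their germ-free littermates. The conventionalized animal was the lower in pairs A, C and D and the higher in pair B, and the germ-free animal of pair C, whose library stood apart from the others, was far above the rest. Ern1 averaged 12.0 ± 5.85 CPM in conventionalized animals, against 33.0 ± 22.5 CPM in germ-free animals, a log2 fold change of -1.33 (SE 0.45, 95% interval -2.29 to -0.37). Its limma p was 0.0104 before and 0.0994 after adjustment over all tested genes. With the littermate block the limma adjusted p was 0.0460. Without the germ-free animal of pair B it was 0.0419, at a log2 fold change of -1.62, in a fit that called 3.78% of all tested genes lower. Without the germ-free animal of pair C the log2 fold change was -0.93 and the limma adjusted p 0.141, and with the block and without pair C, an alternative added after the data were seen, the values were -1.03 and 0.172. The call with the block was therefore not kept without pair C.

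Xbp1, whose mRNA IRE1 splices, was at 410.3, 196, 177 and 300.3 CPM in the conventionalized animals of pairs A to D, and at 412, 309.8, 299 and 260.2 CPM in their germ-free littermates. The animals of pair A were the highest of their groups at nearly the same level, those of pairs B and C were lower in the conventionalized littermate, and the groups overlapped. The log2 fold change was -0.30 (SE 0.35, 95% interval -1.05 to 0.44, limma adjusted p = 0.564), and -0.56 to -0.13 with single animals left out.

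Ern2 encodes IRE1 beta, a relative of IRE1 alpha found in mucosal epithelia and concentrated in goblet cells, from a gene on the minus strand at chr7:122169893-122186207. It was at 74.0, 11.0, 12.3 and 14.8 CPM in the conventionalized animals of pairs A to D, and at 19.7, 24.8, 47.1 and 44.0 CPM in their germ-free littermates. In 3 pairs the conventionalized animal was the lower, and in pair A it was the highest of all 8. The log2 fold change was -0.67 (SE 0.53, limma adjusted p = 0.394). Without the conventionalized animal of pair A, the highest of all 8, it was -1.33, with a limma adjusted p of 0.0807. The 12 goblet cell markers summed to 4.08%, 0.188%, 0.312% and 0.514% of the library in the conventionalized animals of pairs A to D, and to 0.398%, 0.768%, 0.834% and 0.976% in their germ-free littermates; 0 of the 12 passed the test. The mucin gene Muc2 was at 2041 CPM in the conventionalized animal of pair A and at 51.3 to 545 CPM in the other 7. Ern2 and the goblet cell markers were highest in the same library, and their part in the Ern2 values was not tested.

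**Figure D3:**
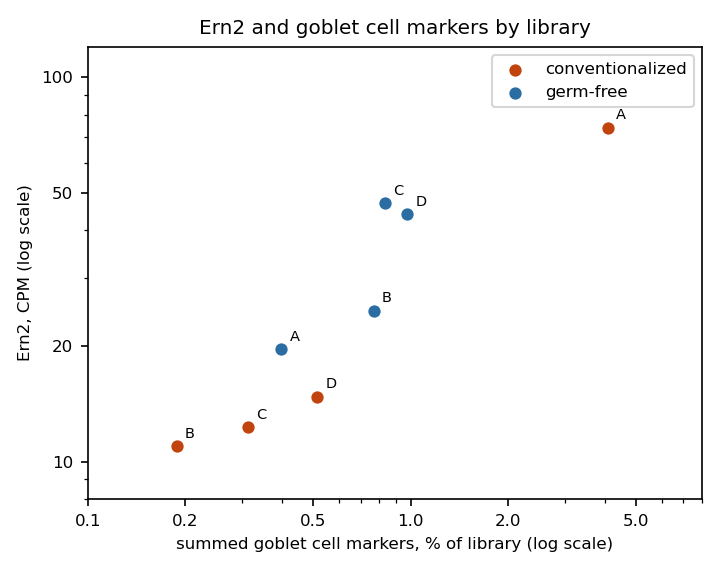
Ern2 in CPM (vertical, log scale) against the summed goblet cell markers as a percentage of the library (horizontal, log scale) in each of the 8 libraries, labelled by littermate pair. The conventionalized animal of pair A, at 74.0 CPM and 4.08%, lies at the upper right end, and those of pairs B, C and D at the lower left.

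Atf6, the membrane-bound transcription factor that raises BiP and other chaperones, was, after TMM scaling, the only gene of the 28 whose groups did not overlap (3.57%, against 14.9% of all tested genes in either direction and 5.88% in the lower direction). The gene lies on the minus strand at chr1:170704674-170867771. It was at 33.4, 34.3, 31.0 and 24.8 CPM in the conventionalized animals of pairs A to D, and at 50.8, 41.8, 64.0 and 49.3 CPM in their germ-free littermates. Every conventionalized animal was below every germ-free one. Atf6 averaged 30.9 ± 4.28 CPM in conventionalized animals, against 51.5 ± 9.25 CPM in germ-free animals, a log2 fold change of -0.72 (SE 0.26, 95% interval -1.28 to -0.16). The limma p was 0.0149 before and 0.116 after adjustment over all tested genes, and 0.0797 to 0.362 over the alternatives. Leaving out single animals moved the log2 fold change between -0.85 and -0.61. With library size as the only scaling 5 genes had no overlap (Hspa5, Dnajb9, Herpud1 and Atf6 lower, Derl1 higher), beside 20.1% of all tested genes. Of the 13 genes counted with the ATF6 arm, Hspa5, Hsp90b1 and Calr among them, Atf6 was the farthest below 0.

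Eif2ak3, Atf4, Ddit3 and Trib3 form the PERK arm: the kinase PERK, the factor whose translation it permits, the death-related factor CHOP, and a pseudokinase that CHOP and ATF4 induce. Eif2ak3 was at 16.1, 16.3, 11.7 and 13.9 CPM in the conventionalized animals of pairs A to D, and at 26.5, 15.1, 19.3 and 3.88 CPM in their germ-free littermates. Conventionalized animals lay close together inside the wide germ-free range, and the log2 fold change was 0.11 (SE 0.48, limma adjusted p = 0.894). Atf4 was at 256, 163, 168 and 357 CPM in conventionalized animals, and at 247, 216, 173 and 228 CPM in germ-free animals, a log2 fold change of 0.063 (SE 0.33, limma adjusted p = 0.910). Here the groups overlapped, with the conventionalized animal of pair D the highest.

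Ddit3 was at 24.3, 16.7, 28.1 and 51.1 CPM in the conventionalized animals of pairs A to D, and at 46.4, 36.4, 48.3 and 16.1 CPM in their germ-free littermates. The conventionalized animal was the lower in pairs A, B and C and the higher in pair D, and the groups overlapped. The log2 fold change was -0.29 (SE 0.40, limma adjusted p = 0.643), and -0.64 to -0.053 with single animals left out. Trib3 did not pass the filter, with 0.859 to 3.76 CPM in conventionalized animals, against 1.71 to 9.86 CPM in germ-free libraries. The germ-free animal of pair D was low for Eif2ak3, Ddit3 and Hyou1, but the highest for Trib3.

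**Figure D4:**
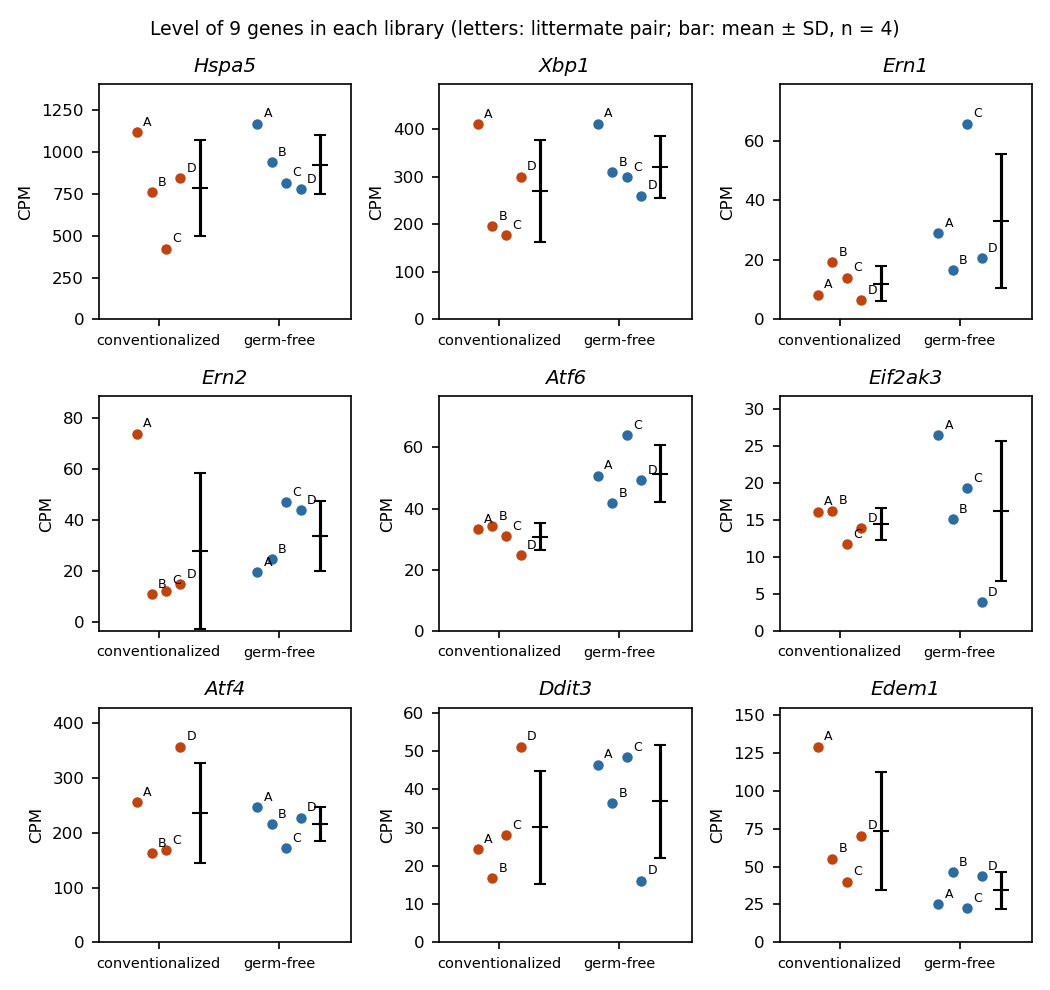
CPM of Hspa5, Edem1 and the 7 tested sensor and transcription factor genes in each library (points, lettered by littermate pair), with the mean ± SD of the 4 animals per group. Atf6 shows no overlap between the groups, and Ern1 and Ern2 each hold 1 animal far above the rest of its group.

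Set out by arm, the 9 tested genes of the IRE1 and XBP1 arm had a median log2 fold change of -0.024, the 13 of the ATF6 arm 0.093 and the 3 of the PERK and ATF4 arm 0.063, while Canx, Pdia3 and P4hb, which were given to no single arm, had 0.30. The assignment of genes to arms is a simplification, since many targets answer to more than 1 factor. Within the IRE1 arm the values ran from -1.33 for Ern1 to 1.02 for Edem1, and within the ATF6 arm from -0.72 for Atf6 to 0.65 for Pdia4. In the PERK arm the sensor Eif2ak3, at 0.11, was the highest of the 3, and differences between sensors and targets were not tested. Over all 28 genes, 17 were positive and 11 negative, or 60.7% positive against 70.2% of all tested genes, and the median was 0.078. At an unadjusted limma p under 0.05 there were 3 genes, Edem1, Ern1 and Atf6, or 10.7%, against 27.8% of all tested genes. Edem1 was on the higher side, as were 19.7% of all tested genes, and Ern1 and Atf6 on the lower, as were 8.12%.

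**Figure D5:**
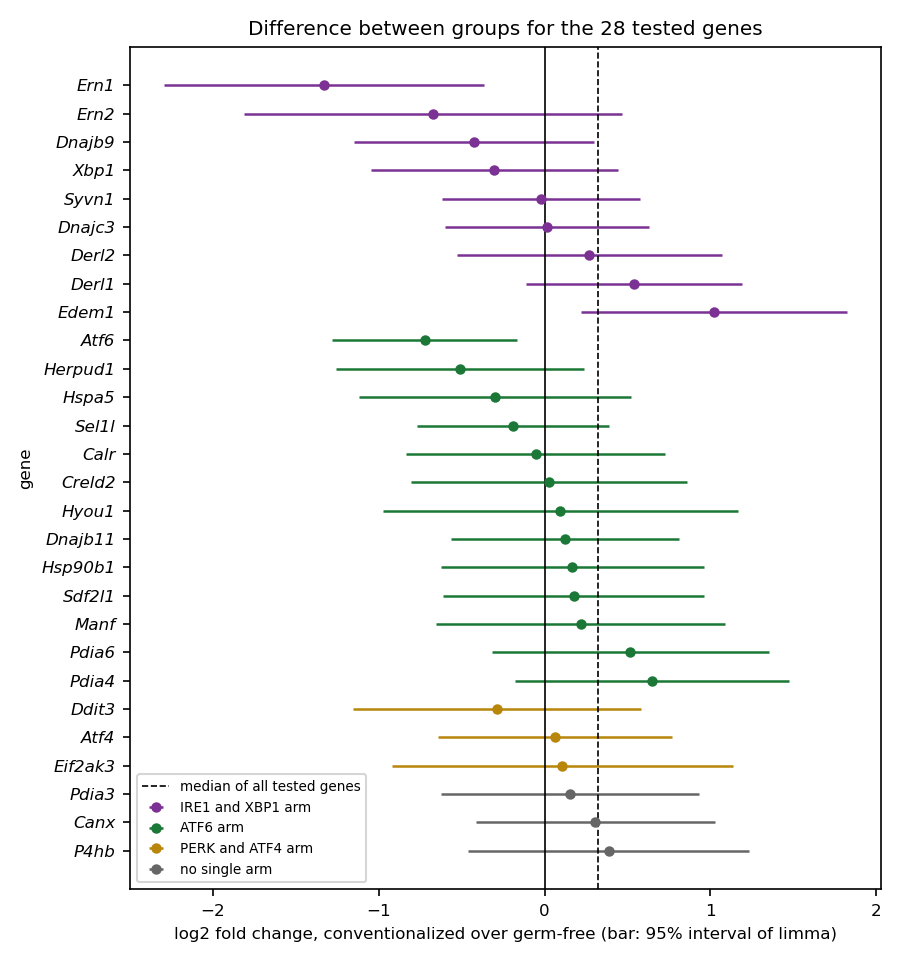
Log2 fold change, conventionalized over germ-free, with its 95% interval from limma for the 28 tested genes, coloured by arm and ordered within each arm. The dashed line is the median of all tested genes, 0.32; the intervals of Ern1 and Atf6 lie below 0, that of Edem1 lies above 0, and all others include 0.

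The precision of these values limits what their lack of a call says. The standard errors ran from 0.26 to 0.53 on the log2 scale, with a median of 0.37. The 95% interval lay wholly within 1 log2 unit of 0 for 10 of the 28 genes, or 35.7%, against 31.1% of all tested genes. For the other 18 a change of 2-fold in at least 1 direction was not outside the interval.

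Further genes of the same pathways were described from lists of other ER functions. Of 24 tested folding and redox enzymes 0 passed the limma test in either direction (before adjustment 3 were under 0.05 on the higher and 1 on the lower side), with a median log2 fold change of 0.26. Prdx4, a peroxiredoxin that uses ER peroxide to form disulfide bonds, averaged 105 ± 22.6 CPM in conventionalized animals, against 41.2 ± 24.9 CPM in germ-free animals (SD, n = 4 each) and was higher in all 4 pairs, a log2 fold change of 1.58 (SE 0.45, limma adjusted p = 0.0624, or 0.0210 with the littermate block). It was called higher in 6 of the 18 alternatives, with limma adjusted p from 0.0165 to 0.192 over all 18, and the log2 fold change was 1.05 without the germ-free animal of pair C. Agr3, a disulfide isomerase relative, averaged 34.6 ± 11.5 CPM in conventionalized animals, against 65.3 ± 26.3 CPM in germ-free animals (limma adjusted p = 0.131), and was called lower in 2 of the 18 alternatives, both of which leave out the germ-free animal of pair C, with limma adjusted p of 0.0181 and, with the block, 0.0435. Qsox1, a sulfhydryl oxidase, and Ppib, the ER cyclophilin, had log2 fold changes of 0.66 and 0.93 and each a limma adjusted p of 0.178.

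Of 23 further degradation genes 0 passed in either direction, with or without adjustment, with a median of 0.17; the lowest limma adjusted p, 0.209, was that of the ubiquitin-conjugating enzyme Ube2j2, followed by Ubxn4, Selenos and Man1b1. Of 38 translocation and N-glycosylation genes 0 passed in either direction and 2 were under 0.05 before adjustment. Of these 38, 35 were positive, against 70.2% of all tested genes, and the median was 0.26. They share libraries and scaling, so their signs are not independent. Alg5 and Alg2, which build the sugar donor, had log2 fold changes of 0.93 and -0.55, the signal peptidase subunit Sec11c 0.89 and the oligosaccharyltransferase subunit Stt3b 0.61, with limma adjusted p-values from 0.140 to 0.217. Of 30 ER to Golgi transport genes 0 passed in either direction, with or without adjustment, with a median of 0.22 and Kdelr1, Tmed9, Lman1 and Sec13 the lowest in p. Of 22 further stress transducers 0 passed and 2 were under 0.05 before adjustment, with a median of 0.26; the lowest in p were Bcl2l11, a death-promoting Bcl2 relative (22.6 CPM on average in conventionalized animals, against 11.1 CPM in germ-free animals, limma adjusted p = 0.0981), Creb3l4, Zbtb8os and Eif2b1. These medians were below the 0.32 of all tested genes. For each of these lists the share under 0.05 before adjustment was also below the 27.8% of all tested genes.

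Among 28 tested targets of ATF4 and genes of amino acid supply, 1 rose and 0 fell, with a median of 0.44, beside 1.16% of all tested genes called higher. Cars, the cysteinyl-tRNA synthetase, averaged 51.1 ± 8.04 CPM in conventionalized animals, against 22.7 ± 4.07 CPM in germ-free animals (SD, n = 4 each) and was higher in all 4 pairs, a log2 fold change of 1.15 (SE 0.26, limma adjusted p = 0.0244). Its limma adjusted p was 0.0916, 0.0816 and 0.0905 without the conventionalized animals of pairs A, B and D, 0.0758 and 0.0542 without the germ-free animals of pairs A and D, and 0.113 with no filter. The glycine enzyme Shmt2 averaged 169 ± 40.4 CPM in conventionalized animals, against 73.2 ± 33.0 CPM in germ-free animals (limma adjusted p = 0.0619). The serine enzyme Phgdh averaged 160.3 ± 39.5 CPM in conventionalized animals, against 79.1 ± 43.3 CPM in germ-free animals (limma adjusted p = 0.112). The transsulfuration enzyme Cbs averaged 35.6 ± 14.7 CPM in conventionalized animals, against 10.6 ± 9.70 CPM in germ-free animals (limma adjusted p = 0.0695). Over the 18 alternatives Cars was called higher in 12, Shmt2 in 6, Cbs in 4 and Phgdh in 1. With the littermate block 5 of the 28 rose (Cars, Cbs, Shmt2, Phgdh and Cebpb), beside 8.08% of all tested genes called higher in that fit. The proliferation markers, given above, were higher in the same animals, and their part in these values was not tested.

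Of the 30 genes, 10 share exon bases with another annotated gene, 9 of them with a gene on the opposite strand: Hsp90b1, Pdia3, Pdia6, Dnajb9, Manf, Syvn1, Derl2, Eif2ak3 and Ddit3. The sources used here do not give whether the counting used strand, so reads in the shared bases of these genes are uncertain. Calr has 1 named pseudogene, and its counts may be split with it.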

How the data were processed

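RNA was measured in 8 libraries made from 10 ng of total RNA and read as 100 bp single ends, per the labels' protocols. Per the submitters' processing notes, the build was mm10 and the tools included STAR 2.4.2a, Trimmomatic 0.36, DESeq2 1.12.4 and R 3.3.1 by the authors, whose series text also names the authors' use of Salmon and edgeR. The deposited values are signal that had been normalized before deposit, not raw counts: within a tolerance of 0.02, 99.9% of values of genes with 1 transcript were whole multiples of 1 step per library (0.736 to 1.35), against 30.4% for genes with several, so count tests were not run. Approximate depth is the deposited total divided by the step and carries PCR duplicates, since no molecular identifiers are named.

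Genes were matched to GENCODE M21 (GRCm38, mm10). TMM factors (trims of 30% and 5%) put the values on a CPM scale, and genes that reached 10 CPM in 4 or more libraries entered the test as log2(CPM + 0.5), which shrinks low genes' fold changes, with limma 3.58.1 (trend and robust) in R 4.3.3. P-values are two-sided, adjusted by Benjamini-Hochberg over all 10053 tested genes, and called under 0.05, with n = 4 animals per group. Values in shares are percentages of the unscaled deposited signal.

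The libraries are paired by design, since the labels give every animal a littermate pair. The correlations of deviations from the group means within pairs were 0.14, -0.16, 0.31 and -0.0063 for A to D. The fit as reported ignores the pair, and a block for it is an alternative, given where it changed a call. Other alternatives were pseudocounts of 1 and 0.1, no filter or 1 CPM, other scalings, limma without trend, and leaving out animals.

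The genes, lists and tests were chosen with earlier results of these data known. All 30 genes are named, with values per library for Hspa5, the sensors and their factors and any gene called with or without the block, means for up to 15 others by lowest p, and up to 4 genes by lowest p from each further list. Per-library values of Pdia4, Edem1, Sdf2l1, Creld2 and Manf were added after they had been seen.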

Additional observations from a re-analysis of the deposited data

Results flagged for a closer look

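Groups of 4 animals were examined for the 30 genes and for the sums of some of the lists, 68 groups in all. By Dixon's ratio 3 of the 68 held 1 animal far from the other 3 of its group. Chance gives about 1 in 20, and 3 of 68 is not above that. List sums that were not flagged could stand apart too. The further folding and redox enzymes summed to 0.443% in the conventionalized animal of pair A, against 0.256% to 0.268% in the other conventionalized animals. Derl3 was at 4.21 CPM in the conventionalized animal of pair D, against 1.23 to 1.73 CPM in the other conventionalized animals. Ern2 was at 74.0 CPM in the conventionalized animal of pair A, against 11.0 to 14.8 CPM in the others. The goblet cell markers summed to 4.08% of the library in the same animal, against 0.188% to 0.514% in the other conventionalized animals.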

How the results depend on the processing

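Of the 28 tested genes, 0 were higher under any of the 18 alternatives. Ern1 was the 1 gene called lower under any, with the littermate block (1 gene) and without the germ-free animal of pair B, so leaving out single animals gave 0 to 1 lower and 0 to 0 higher. The block changed no other call in the set. The median of the tested genes was -0.12 to 0.23 with single animals left out, -0.22 without the conventionalized animal of pair A and the germ-free animal of pair C, and -0.15 with library size as the only scaling, where the median of all tested genes was 0.088.

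Over all genes, 45 were higher with no filter, 263 with upper-quartile scaling, 812 with the littermate block and 235 without the conventionalized animal of pair A and the germ-free animal of pair C. Leaving out single animals gave 14 to 410 higher, 151 to 372 lower and 182 to 782 in all, and the block gave 1317 in all.

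A log2 fold change of a gene in the set turned sign under at least 1 alternative for 14 of the 28 genes, none of them called. With library size as the only scaling Hsp90b1 was at -0.067, Pdia3 at -0.083, Dnajb11 at -0.11, Dnajc3 at -0.22, Sdf2l1 at -0.059, Creld2 at -0.21, Manf at -0.017, Hyou1 at -0.14, Atf4 at -0.17 and Eif2ak3 at -0.12. Without the conventionalized animal of pair A and the germ-free animal of pair C, Hsp90b1 was at -0.16, Pdia3 at -0.21, P4hb at -0.024, Dnajb11 at -0.25, Dnajc3 at -0.24, Sdf2l1 at -0.26, Creld2 at -0.45, Manf at -0.34, Derl2 at -0.24 and Atf4 at -0.11. With the replicate block and without pair C, Calr was at 0.035 and Syvn1 at 0.24. With single animals left out, the ranges that crossed 0 were -0.063 to 0.42 for Hsp90b1, -0.27 to 0.099 for Calr, -0.077 to 0.31 for Pdia3, -0.14 to 0.34 for Dnajb11, -0.22 to 0.19 for Dnajc3, -0.067 to 0.42 for Sdf2l1, -0.26 to 0.27 for Creld2, -0.088 to 0.48 for Manf, -0.51 to 0.35 for Hyou1, -0.18 to 0.18 for Syvn1, -0.034 to 0.50 for Derl2, -0.19 to 0.22 for Atf4 and -0.44 to 0.43 for Eif2ak3. The cause was not tested. Depth per gene cannot be read from the table for genes with several transcripts, so counting error could not be set apart from differences between animals there.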
